A study of Mus musculus and Homo sapiens with 12 samples.

Results

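FABP4, FABP5, CD36, PLIN2, PPARG and LPL, 6 genes of fatty acid uptake, binding and storage, were compared between libraries labelled wild type and PFKFB4 knockout in 2 breast cancer lines. They were chosen by name, because Fabp4 had stood out in the mouse line in earlier work on these same data. The mouse genes were found by symbol and the human genes by their Ensembl identifiers, which gave 12 rows of the 114564 in both expression tables. EMT6 derives from a mammary carcinoma of the mouse and MDA-MB-231 from a human breast adenocarcinoma. Each was profiled as wild type and as a PFKFB4 knockout with 3 libraries a group, 12 libraries in all, by single-end poly(A) RNA sequencing. All groups grew in the same high-glucose medium with serum, and no other allele or agent is named. The labels call the libraries biological replicates but do not say whether they were separate cultures or how many knockout clones they represent, so every p-value reflects only how much these libraries vary, which may be technical. The knockout columns carry codes (A7 in EMT6, G2 in MDA-MB-231) that no label explains, and they were taken as the knockouts because the other columns are named as wild type. The word knockout is used as the labels give it.

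Cells take up fatty acids that lipoprotein lipase (LPL) frees from circulating triglyceride. CD36 is a membrane receptor that helps them across the plasma membrane, and the fatty acid binding proteins FABP4 and FABP5 carry them through the cytosol. PLIN2 coats lipid droplets, where the fatty acids are stored as esters, and its amount follows the droplet content of many cell types. PPARG is a nuclear receptor that binds fatty acid derivatives and switches on adipocyte genes, FABP4, CD36, LPL and PLIN2 among its known targets. FABP4 is typical of adipocytes, some macrophages and capillary endothelium, and FABP5 of epidermal and many epithelial cells. PFKFB4 makes and breaks down fructose-2,6-bisphosphate, an activator of glycolysis.

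Nuclear receptors such as PPARG bind repeats of the core AGGTCA, so the promoter windows of the members were searched for it on both strands. RefSeq promoter windows of the build GRCm38.p6, from 250 bases before to 50 bases after a start, were found for Plin2, Cd36 and Pparg, 3 of the 6 mouse genes. Fabp4, Fabp5 and Lpl are named only. The upstream sequence of Plin2, the gene with the highest level among the mouse members, is shown to place its core motif, which stands in capitals in its reverse complement. The letters run 5′ to 3′ on the minus strand and end at the base before the annotated gene (chr4:86670061-86670309).
Plin2: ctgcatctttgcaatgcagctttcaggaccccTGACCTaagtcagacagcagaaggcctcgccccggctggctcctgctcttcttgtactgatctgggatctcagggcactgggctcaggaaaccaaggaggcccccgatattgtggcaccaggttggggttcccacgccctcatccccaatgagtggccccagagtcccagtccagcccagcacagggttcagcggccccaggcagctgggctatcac
The core lay 217 to 212 bases before the start of the gene. The Cd36 window and 2 of the 3 Pparg windows held the core 1 time each. It was found in 5340 of 32851 mouse promoter windows, or 16.3%. The full repeat with a single base between the copies, AGGTCANAGGTCA, overlaps the core motif by construction and was in none of the members' windows and in 13 of all windows (0.0396%). A match describes letters in a window and not a bound site.

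Levels are in TPM, a measure of transcript abundance that divides reads by gene length and brings every library to a sum of 1000000. How many reads stand behind a value is unknown. Between 11871 and 12426 genes reached 1 TPM in the EMT6 libraries and between 13038 and 13593 in MDA-MB-231, with fewer in every knockout library than in any wild-type library of its line. Differences between groups were tested with limma on log2(TPM + 1) over all genes at 0.5 TPM or more in at least 3 of the 6 libraries of a line. A gene was called at a Benjamini-Hochberg adjusted p under 0.05. In EMT6, 13499 genes were tested and 56.7% were called, 1954 higher and 5705 lower in the knockout, and the median difference of all tested genes was -0.21. With each library rescaled by the median ratio of its genes, that median moved to -0.01 and the split to 3660 higher and 3327 lower, so EMT6 differences are to be read against that median. In MDA-MB-231, 20.0% of 15299 tested genes were called, 1220 higher and 1845 lower, and 1730 higher and 1658 lower after the same rescaling.

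The targeted gene was checked first. Pfkfb4 in EMT6 stood at 10.2, 10.5 and 10.4 TPM in wild type and at 6.96, 6.87 and 8.24 TPM in the libraries labelled knockout. It fell by 0.45 ± 0.08 (SE) on the log2 scale (limma adjusted p = 0.00487). With median-ratio scaling the difference was -0.22 (adjusted p = 0.0695), and it was -0.18 (adjusted p = 0.134) with a trend on exon length removed. Transcript was thus still counted over this gene in all 3 libraries labelled knockout, and TPM over a whole gene does not show whether a deleted part is missing. The human gene was not analysed here, since the human table carries identifiers without names.

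**Figure D1:**
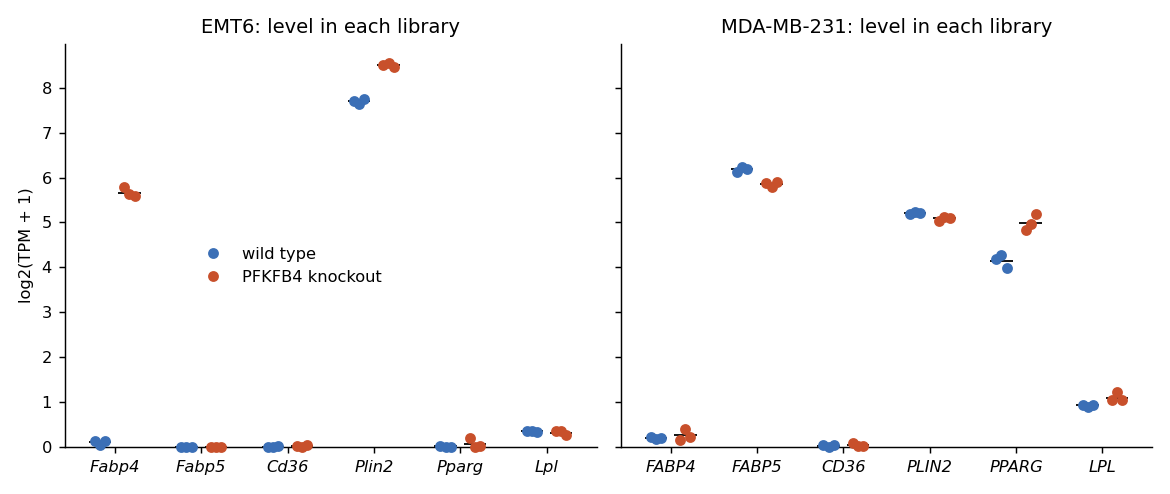
Level of each of the 6 genes in every library, as log2(TPM + 1), for EMT6 on the left and MDA-MB-231 on the right, with a short line at each group's mean. Fabp4 stood near 0 in wild-type EMT6 and above 5 in all 3 knockout libraries, while the human FABP4 stayed below 1 in all 6 libraries.

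Among the binding proteins, Fabp4 went from near absence to a high level in the EMT6 knockout. Fabp4 (chromosome 3, 10204088 to 10208576, minus strand, GRCm38) was listed at 0.0989, 0.0294 and 0.0952 TPM in the wild-type libraries. The knockout libraries held 53.9, 48.6 and 47.1 TPM. All 3 knockout libraries lay far above all 3 wild-type libraries, and the highest knockout value exceeded the lowest by little against that gap. Group means were 0.0745 ± 0.0391 TPM and 49.9 ± 3.56 TPM (SD, n = 3 each). Ordered by level among the 54331 identifiers of the table, Fabp4 moved from rank 18120 in wild type to rank 2127 in the knockout. Its difference of 5.56 ± 0.08 (SE) on the log2(TPM + 1) scale was the largest rise among the 13499 tested genes. Since this contrast led to the choice of the gene, these values are a description and carry no test, and Fabp4 entered the fit only because its knockout libraries passed the filter. With a pseudocount of 0.1 in place of 1 the difference was 8.19, because the wild-type values lie so close to 0.

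FABP4 was low in both groups of the human line. FABP4 in MDA-MB-231 was at 0.161, 0.133 and 0.155 TPM in wild type, and in the knockout at 0.121, 0.313 and 0.158 TPM. The groups overlapped, all 6 values lay under the filter and no test was made.

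Fabp5 was listed at 0 in all 6 EMT6 libraries. Of the 938 windows of 50 bases in its longest coding transcript, 198 (21.1%) also occur in transcripts of other genes, all of them the 5 processed pseudogenes Fabp5l2, Gm13998, Gm14328, Gm6100 and Gm6166. Each of these 5 copies was also listed at 0 in every EMT6 library, and Fabp4 shares no such window with any other gene. How the authors counted reads that match several places is not given in the sources used here, so the 0 of Fabp5 is only a listed value.

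FABP5 was by contrast the most abundant of the 6 genes in MDA-MB-231. It stood at 68.3, 74.7 and 72.6 TPM in wild type, and in the knockout at 57.7, 54.3 and 58.4 TPM. Every knockout library was below every wild-type library. The means were 71.9 ± 3.26 and 56.8 ± 2.20 TPM (SD, n = 3 each), and FABP5 fell by 0.33 ± 0.07 (SE) on the log2 scale (limma adjusted p = 0.0216). The call rests on few libraries and on the scaling. It was lost with median-ratio scaling (-0.27, adjusted p = 0.0754) and when any library other than knockout replicate 1 was left out (wild-type replicate 1, 0.0597; wild-type replicate 2, 0.0519; wild-type replicate 3, 0.0692; knockout replicate 2, 0.0892; knockout replicate 3, 0.0560, all limma adjusted p).

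The other fatty acid binding proteins gave almost no signal in EMT6. The 8 further coding genes of the family (Fabp1, Fabp2, Fabp3, Fabp6, Fabp7, Fabp9, Fabp12 and Pmp2) and 2 family pseudogenes were all under 1 TPM in both groups, with a highest value of 0.113 TPM in any library.

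The uptake genes upstream of the binding proteins were near absent from EMT6. Cd36 (chromosome 5, 17781690 to 17888801, minus strand) was listed at 0, 0 and 0.00887 TPM in wild type, and in the knockout at 0.00771, 0 and 0.0247 TPM. Lpl (chromosome 8, 68880491 to 68907448, plus strand) was at 0.274, 0.273 and 0.260 TPM in wild type, and in the knockout at 0.269, 0.270 and 0.200 TPM. Both genes had overlapping groups and stayed under the filter in all 6 libraries. For Lpl, 4.11% of the 50-base windows of the longest coding transcript are also found in transcripts of other genes, and reads from these windows cannot be assigned to Lpl by sequence alone.

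In MDA-MB-231 the same holds for CD36, at 0.0313, 0 and 0.0343 TPM in wild type, and in the knockout 0.0563, 0.0137 and 0.00688 TPM. LPL was near 1 TPM, with 0.902, 0.863 and 0.925 TPM in wild type, and in the knockout 1.06, 1.32 and 1.06 TPM. The LPL groups did not overlap, but its difference of 0.18 ± 0.10 (SE) on the log2 scale did not pass the test (limma adjusted p = 0.244).

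PPARG, the transcription factor of the set, was measured well in the human line alone. It stood at 17.2, 18.4 and 14.9 TPM in wild-type MDA-MB-231 and at 27.4, 30.3 and 35.3 TPM in the knockout. The lowest knockout library was above the highest wild-type library. The means were 16.8 ± 1.8 and 31.0 ± 3.99 TPM (SD, n = 3 each), a ratio of 1.84, and PPARG rose by 0.84 ± 0.13 (SE) on the log2 scale (limma adjusted p = 0.0065). It was called higher under every alternative run, with adjusted p from 0.00234 to 0.0343, and it ranked 337th from the top by log2 difference among the tested human genes. Among the identifiers ordered by level it moved from rank 5226 to rank 3456.

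Pparg in EMT6 (chromosome 6, 115360951 to 115490399, plus strand) was listed at 0.0211, 0 and 0 TPM in wild type, and in the knockout at 0.146, 0 and 0.0133 TPM. A single knockout library gave most of this signal and the groups overlapped. Fabp4 was high in the knockout of EMT6, where Pparg was near 0 in all 6 libraries. In MDA-MB-231 PPARG was abundant and FABP4 was under 0.5 TPM throughout. Whether PPARG bears on FABP4 in either line was not tested. The lines were normalised in separate tables, and no level was tested across them.

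The droplet protein Plin2 (chromosome 4, 86648386 to 86670060, minus strand) was the most abundant member in EMT6 and higher still in the knockout. Its levels were 207, 199 and 213 TPM in wild type, and in the knockout 364, 374 and 354 TPM. No library of the knockout came near the wild-type range, and the libraries within a group lay within a few percent of each other (coefficient of variation 3.40% and 2.76%). The means were 206 ± 7.03 and 364 ± 10.0 TPM (SD, n = 3 each), a ratio of 1.76 and a log2 difference of 0.81 ± 0.04 (SE), given without a test for the reason stated for Fabp4. The difference was 1.06 with median-ratio scaling. Of the windows of 50 bases in its longest coding transcript, 4.89% are shared with the pseudogene Gm12551, itself at most at 0.0399 TPM.

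PLIN2 in MDA-MB-231 had lower values in the knockout. It stood at 35.6, 36.5 and 36.0 TPM in wild type, and in the knockout at 31.9, 33.8 and 33.5 TPM. The groups did not overlap, yet the difference of -0.12 ± 0.07 (SE) on the log2 scale did not pass the test (limma adjusted p = 0.265).

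**Figure D2:**
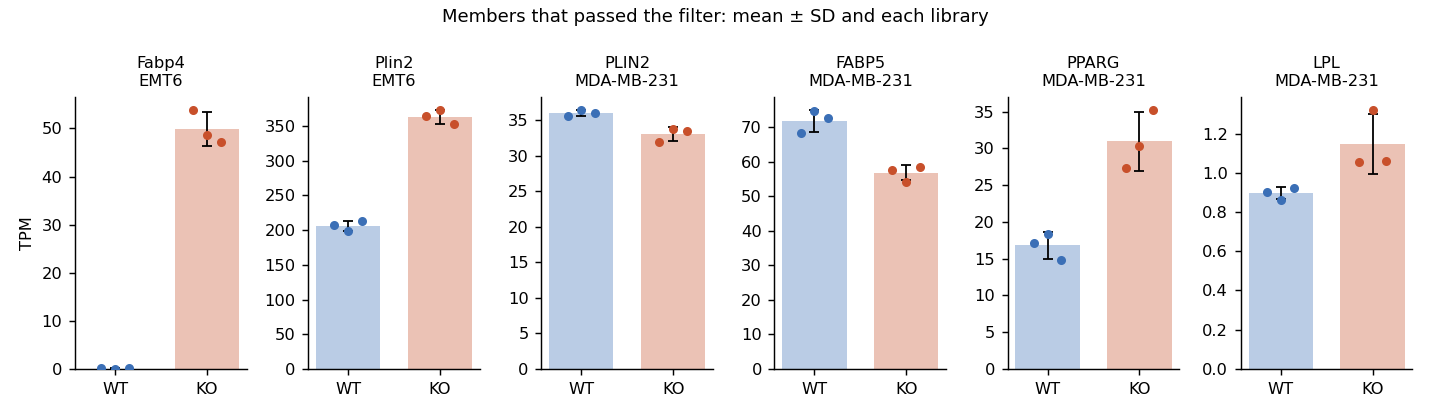
TPM of the members that passed the filter on low levels, each panel with its own axis from 0, as bars for the group mean, SD as the error bar and points for the 3 libraries of wild type (WT) and knockout (KO). Fabp4 and Plin2 in EMT6 and PPARG in MDA-MB-231 were higher in all 3 knockout libraries than in all 3 wild-type libraries, as was LPL at a difference that did not pass the test. FABP5 and PLIN2 in MDA-MB-231 were lower in all 3 knockout libraries, PLIN2 without passing the test.

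Counted over the set, 2 of the 6 mouse genes (Fabp4 and Plin2) passed the filter and were higher in the knockout. No call is given for them, since this contrast led to their choice. Both were also without overlap between groups, as were 66.2% of tested EMT6 genes, 17.9% higher and 48.3% lower in the knockout. The part of Fabp4 in these counts was fixed by how the set was chosen. The other members were chosen with earlier results of these data known, so the counts are a description only. In MDA-MB-231, 4 of the 6 genes were tested, of which 1 (PPARG) was called higher, against 7.97% of all tested genes, and 1 (FABP5) lower, against 12.1%. All 4 had groups without overlap, 2 in each direction, as did 40.1% of tested genes, 17.2% higher and 22.9% lower. The summed level of the 6 genes was 206.8 TPM in wild-type EMT6 and 414.0 TPM in the knockout, and 125.8 and 122.2 TPM in MDA-MB-231.

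**Figure D3:**
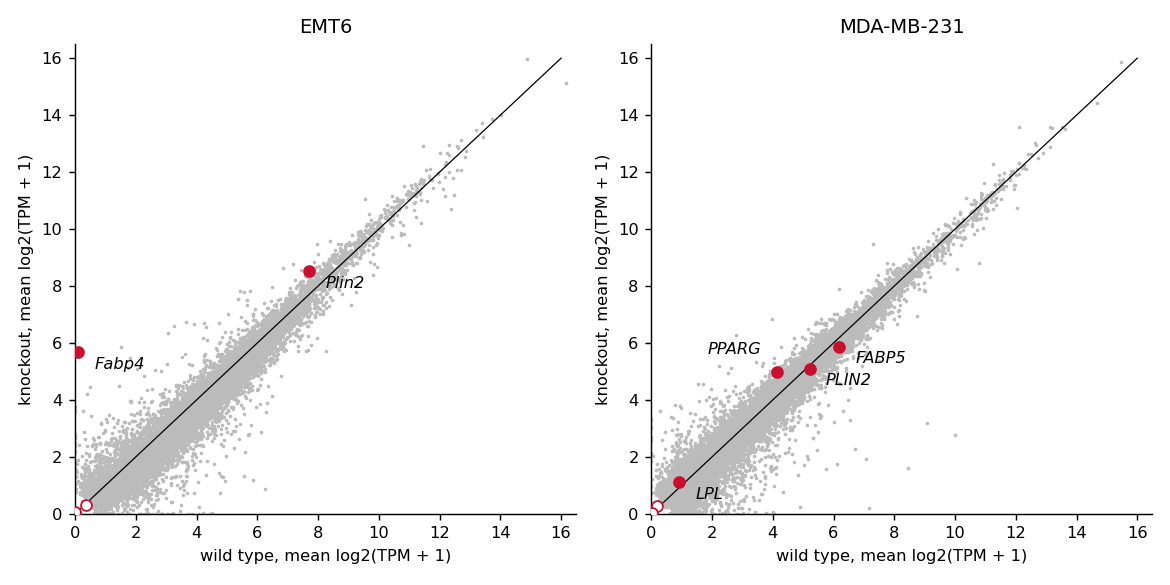
Mean log2(TPM + 1) in wild type (horizontal) against knockout (vertical) for each tested gene in grey, with the diagonal of equal levels. Filled red points are members that were tested and open red points members under the filter. Fabp4 stands apart on the left edge of the EMT6 panel, while the human members lie close to the cloud of all genes.

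The order of levels within the set differed between the lines. TPM is corrected for length, but which length was used is not given in the sources used here, and for Fabp4 the union of all annotated exons is 4489 nt against 896 nt for the longest coding transcript, so the order between genes depends on it. In wild-type EMT6 the order was Plin2, Lpl and Fabp4, without overlap between neighbours, followed by Pparg, Cd36 and Fabp5, whose ranges overlapped. In the EMT6 knockout Fabp4 stood in second place behind Plin2 and ahead of Lpl. In wild-type MDA-MB-231 the order was FABP5, PLIN2, PPARG, LPL, FABP4 and CD36, with no overlap between neighbours. It was the same in the knockout, except that the PLIN2 and PPARG ranges overlapped there. In EMT6, Lpl, Pparg, Cd36, Fabp5 and wild-type Fabp4 lay under 0.5 TPM in every library, as did FABP4 and CD36 in MDA-MB-231. The depth behind such values is unknown, so their places order listed values only.

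The markers of other cells in which Fabp4 is normally abundant were examined in EMT6. In bulk RNA, a change in the number of cells of a type and a change in RNA per cell cannot be told apart. Of 12 adipocyte markers, Lipe alone reached 1 TPM, Lep, Cfd, Cidec, Adrb3 and Pck1 were at 0 in every library, and the summed level ran from 1.79 to 2.44 TPM in wild type. In the knockout it ran from 1.30 to 1.44 TPM. Of 13 endothelial markers, Egfl7 alone reached 1 TPM, Kdr, Emcn and Erg were at 0 in every library, and the sums were 3.86 to 5.33 TPM and 2.54 to 5.68 TPM. The 14 macrophage markers moved with Fabp4 in their sum, which was 47.8 to 52.3 TPM in wild type and in the knockout 78.1 to 82.9 TPM. That sum was carried by Cd68, a lysosomal protein, which rose from 23.9 ± 2.38 to 56.1 ± 3.13 TPM (log2 difference 1.20, limma adjusted p = 0.000265), and by Cd14 at 25.3 and 23.7 TPM (adjusted p = 0.158). Of these 14 markers, Adgre1, Mertk, C1qa, C1qb, C1qc and Fcgr1 were at 0 in every library, and Cd68 and Cd14 alone reached 1 TPM. The remaining macrophage markers were under 1 TPM but not at 0 in every library. The listed mean of Lyz2, a gene abundant in macrophages, went from 0.0164 to 0.413 TPM with the knockout. Both means lie under 0.5 TPM, where the depth behind a value is unknown, so no rise of Lyz2 is claimed. Directions of the other macrophage markers under 1 TPM are not given here. The line's own identity was checked with 8 epithelial genes, of which 4 (Krt8, Krt18, Krt19 and Krt14) reached 1 TPM in wild type and 3 in the knockout, and with 8 mesenchymal genes, of which 7 did. Mean levels in wild type and knockout were 482 and 535 TPM for Krt8, 36.3 and 15.5 TPM for Krt18, 36.5 and 3.94 TPM for Krt14 and 1.95 and 0.0177 TPM for Krt19. The epithelial sums, carried by Krt8, overlapped between the groups (530.4 to 584.1 and 542.1 to 567.9 TPM), and the mesenchymal sums were higher in the knockout (8540 to 9181 against 10063 to 10540 TPM). Whether the Cd68, keratin and mesenchymal levels bear on Fabp4 or Plin2 was not tested.

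The neighbours of Fabp4 on chromosome 3 were examined next. Of 25 other genes within 500 kb, 4 were high enough to be tested. Chmp4c, a subunit of the membrane scission machinery, rose from 0.516 to 1.49 TPM (ratio 2.89, log2 difference 0.72, limma adjusted p = 0.000759). That difference was 1.37 with a pseudocount of 0.1 and 1.14 with the trend on exon length removed. Snx16, a sorting nexin, rose from 3.93 to 5.32 TPM (0.36, limma adjusted p = 0.0039), or by 0.56 with median-ratio scaling. Impa1, an inositol monophosphatase, fell from 96.8 to 76.0 TPM (-0.35, adjusted p = 0.0242), a call lost with median-ratio scaling (-0.11, adjusted p = 0.344), with the trend on exon length removed (-0.06, adjusted p = 0.595) and when any wild-type replicate or knockout replicate 1 was left out (adjusted p = 0.0519 to 0.0727). Zfand1 was at 7.12 and 7.80 TPM (0.11, adjusted p = 0.237) and was called higher with median-ratio scaling (0.33, adjusted p = 0.0107). Removing the trend on exon length also gave a call for Zfand1 (0.44, adjusted p = 0.0051). Fabp5 lies on the same stretch and was at 0. Fabp4 was chosen for its rise, the largest of all tested genes at 5.56. That the tested neighbours rose less was therefore fixed by the choice.

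**Figure D4:**
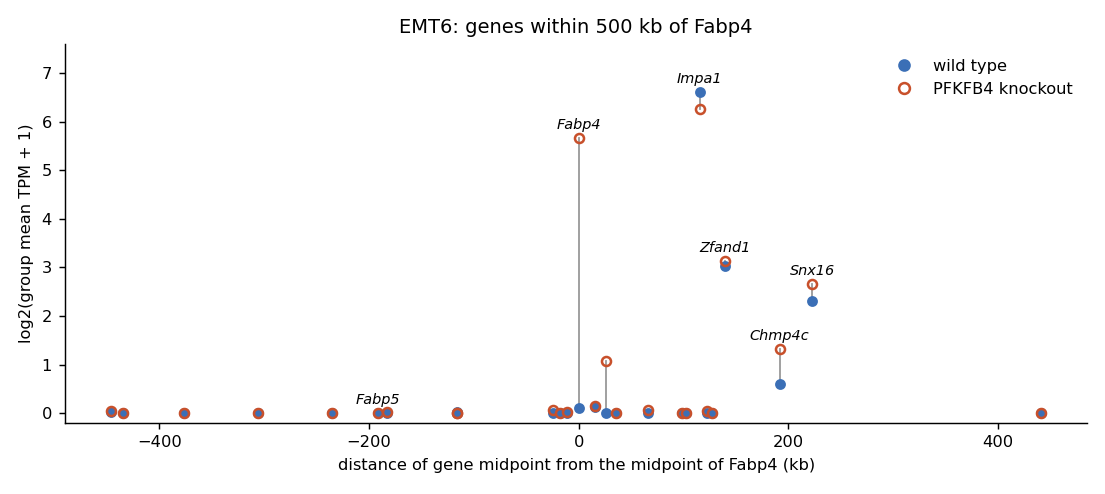
Group means of EMT6 genes within 500 kb of Fabp4, as log2(TPM + 1), against the distance of the gene's midpoint from that of Fabp4 in kb; filled points are wild type and open points knockout, joined by a line. Fabp4, which was chosen for its rise in this contrast, has the longest joining line. Impa1, Zfand1, Snx16 and Chmp4c are the neighbours that were tested.

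The 5 EMT6 genes with the profile most like that of Fabp4 were taken by the mean absolute difference in log2(TPM + 1) over the 6 libraries, among 13486 tested genes with a symbol. Ifi27l2a was nearest at 0.80, with 0.408 ± 0.0958 TPM in wild type, and in the knockout 21.0 ± 0.672 TPM (SD, n = 3 each). Usp18 followed at 0.88 (0.321 ± 0.0972 and 17.4 ± 0.695 TPM), then Rtp4 at 0.96 (2.52 ± 0.453 and 43.1 ± 1.44 TPM). The remaining places went to the short pseudogenes AC151978.1 at 1.00, whose wild-type libraries were at 0, 22.6 and 0 TPM, and Gm49250 at 1.02, at 0 in all wild-type libraries and at 7.83, 35.5 and 6.35 TPM in the knockout. These distances are means over the 6 libraries, and both pseudogenes had uneven libraries within a group. Fabp4 was chosen for its rise, so the genes nearest to it in level had to be higher in the knockout as well. Their rises are therefore a description. Ifi27l2a, Usp18 and Gm49250 also passed the filter only through their knockout libraries.

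Genes that act beside the members in fatty acid handling were counted by list in EMT6, as the human table carries no names. The median difference of all tested genes, -0.21, is the level to read each list against, with 14.5% called higher and 42.3% lower. With median-ratio scaling the level to read against is a median of -0.01, with 3660 called higher and 3327 lower of 13488 tested. Of 19 genes of fatty acid transport and activation, 12 were tested, 4 rose, 5 fell and the median was -0.25, while with median-ratio scaling 4 rose and 3 fell. The transporter Slc27a1 rose from 42.9 ± 2.13 to 58.7 ± 0.880 TPM (limma adjusted p = 0.00101), and Got2, a mitochondrial aminotransferase also found at the plasma membrane, rose from 89.9 ± 1.35 to 110.5 ± 2.65 TPM (adjusted p = 0.00146). Slc27a3 fell from 1.70 ± 0.269 to 0.572 ± 0.0429 TPM (adjusted p = 0.00117). Acsl3, an acyl-CoA synthetase of the endoplasmic reticulum and lipid droplets, fell from 50.8 ± 5.64 to 28.0 ± 1.59 TPM (adjusted p = 0.000948). Further genes named after their values were seen went different ways. Acsl1 rose from 6.95 to 9.84 TPM (limma adjusted p = 0.00593), and the acyl-CoA binding protein Dbi rose from 780.0 to 962.1 TPM (adjusted p = 0.00743). Acsl5 fell from 374 to 306 TPM (limma adjusted p = 0.00405). The log2 difference of Acsl5 was -0.29, close to the median of -0.21 for all tested genes. Its value with median-ratio scaling is not given here.

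Among genes that control lipoprotein lipase and lipoprotein uptake, none was called higher. Of all tested EMT6 genes, 14.5% were called higher and 42.3% lower. Of 21, 10 were tested, 0 rose, 9 fell and the median was -0.43, while with median-ratio scaling 0 rose and 3 fell. Lmf2, a lipase maturation factor, fell from 113 ± 6.81 to 63.8 ± 9.09 TPM (limma adjusted p = 0.00166).

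Among the other genes of the lipid droplet, ester synthesis and lipolysis, none was called higher on the deposited scale, against 14.5% of all tested genes. Of 26, 16 were tested, 0 rose, 7 fell and the median was -0.21, the same as for all tested genes, while with median-ratio scaling 4 rose and 5 fell. Bscl2, the seipin of droplet formation, fell from 11.4 ± 1.75 to 4.40 ± 0.394 TPM (limma adjusted p = 0.000728). Dgat1, which makes triglyceride, fell from 30.4 ± 2.12 to 18.6 ± 0.988 TPM (adjusted p = 0.000859). The perilipin Plin3 was at 26.2 and 23.0 TPM (adjusted p = 0.0841) and Hilpda, an inhibitor of triglyceride lipase, at 9.47 and 10.7 TPM (adjusted p = 0.121), both named after their values were seen.

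Partners of PPARG and other adipogenic factors fell more often than they rose in EMT6, as did all tested genes (42.3% called lower, 14.5% higher). Of 29, 20 were tested, 1 rose, 13 fell and the median was -0.37, while with median-ratio scaling 2 rose and 7 fell. Ppard, another receptor of the PPAR family, fell from 11.2 ± 0.708 to 5.00 ± 0.0986 TPM (limma adjusted p = 0.000223). Klf5 fell from 6.32 ± 0.398 to 2.34 ± 0.186 TPM (adjusted p = 0.000259). Cebpd, an early adipogenic factor, rose from 2.65 ± 0.203 to 4.62 ± 0.915 TPM (adjusted p = 0.0109).

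Known PPAR targets other than the members went both ways. Of 31, 16 were tested, 3 rose, 8 fell and the median was -0.20, while with median-ratio scaling 6 rose and 4 fell. Txnip, an inhibitor of thioredoxin and glucose uptake, rose from 13.7 ± 1.18 to 24.8 ± 2.25 TPM (limma adjusted p = 0.00109), and the acyl-CoA thioesterase Acot1 rose from 8.87 ± 1.22 to 14.1 ± 0.963 TPM (adjusted p = 0.00465). Acadm, a dehydrogenase of mitochondrial fatty acid oxidation, fell from 68.5 ± 4.18 to 34.2 ± 2.33 TPM (adjusted p = 0.000298). Ucp2, a mitochondrial carrier, fell from 316 ± 25.3 to 218 ± 6.55 TPM (adjusted p = 0.00137), a call lost once the trend on exon length was removed (-0.19, adjusted p = 0.123).

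Of 32 genes of fatty acid oxidation, which shares Acadm and others with the target list, 30 were tested, 2 rose, 10 fell and the median was -0.11. With median-ratio scaling 13 of this list rose and 3 fell, and with the trend on exon length removed 11 rose and 5 fell. All tested genes shifted the same way, to 3660 higher and 3327 lower and to 3128 higher and 3594 lower. Etfb, a subunit of the electron transfer flavoprotein, rose from 122 ± 10.8 to 192 ± 7.83 TPM (limma adjusted p = 0.00108), and Etfa, its partner subunit, was called at 74.0 and 81.9 TPM (adjusted p = 0.0447) but lost the call when any library was left out. Crat, carnitine acetyltransferase, fell from 20.1 ± 3.84 to 11.1 ± 0.586 TPM (adjusted p = 0.00425).

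**Figure D5:**
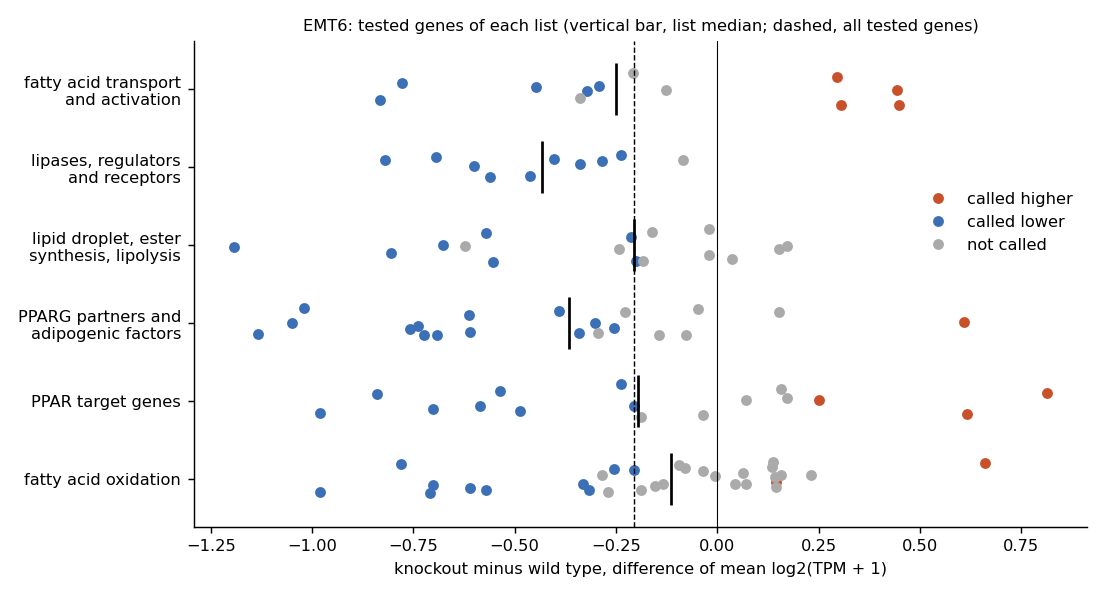
Differences between knockout and wild-type EMT6 in mean log2(TPM + 1) for each tested gene of 6 lists, coloured by whether limma called it higher, lower or neither; the short bar is a list's median and the dashed line the median of all tested genes (-0.21). The lists on lipases, on PPARG partners and on transport have medians left of the dashed line, at -0.43, -0.37 and -0.25, which become -0.19, -0.15 and -0.01 with median-ratio scaling. All tested genes then had a median of -0.01. Fabp4 had the largest rise of all tested genes (5.56), so no gene shown could rise more.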

How the data were processed

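The authors deposited 1 table of TPM per line, in which each library sums to 1000000. Builds mm10 and GRCh38.p7 are named in the submitters' processing notes, as are TopHat2 2.1.1, Subread 1.6.4 with featureCounts, and CASAVA 1.8.2. The sources used here give neither their settings, strand or annotation nor the length behind TPM.

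Mouse identifiers were paired with symbols and GRCm38 positions from GENCODE M21 (54097 of 54331 matched). No human name table was used here, so human lists, markers and positions were not analysed here.

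Each line was fitted alone with limma 3.58.1 (R 4.3.3, mean-variance trend) on log2(TPM + 1), for genes at 0.5 TPM or more in at least 3 of 6 libraries, with Benjamini-Hochberg adjustment. The procedure was also run on simulated data in which few genes changed, in random directions and none rising from near 0. That setting differs from EMT6, where most tested genes were called and Fabp4 rose from near 0. Its outcome is not given here. Members of EMT6 carry no p-value because that contrast led to their choice. The members and lists were chosen with earlier results of these data known. Named genes are the members, Pfkfb4, the called genes of lowest adjusted p (up to 2 in each direction of a list, at 1 TPM or more in the higher group), and the 5 genes nearest to Fabp4; the tested neighbours of Fabp4, marker genes and genes said to be named later are additional. Of the genes this rule takes, 1 is not reported here. The lists cover FABP paralogues, fatty acid transport and activation, lipase regulators, lipid droplet and lipolysis, PPARG partners, PPAR targets, fatty acid oxidation, and markers of adipocytes, macrophages, endothelium, epithelium and mesenchyme. Alternatives were no trend, median-ratio scaling, no filter, a filter of 1 TPM, a pseudocount of 0.1, a replicate block, removal of the 10 most abundant genes, removal of an exon length trend (EMT6) and leaving out each library with the same genes tested.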

Additional observations from a re-analysis of the deposited data

Results flagged for a closer look

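The droplet coat gene PLIN2 had knockout libraries on opposite sides of wild type in the 2 lines. In EMT6 every knockout library was above every wild-type library (log2 difference 0.81), as for 17.9% of tested genes. No test is given for EMT6, since the members were chosen with that contrast known. In MDA-MB-231 every knockout library was below every wild-type library, as for 22.9% of tested genes, but the difference of -0.12 was not called (limma adjusted p = 0.265) and was -0.06 with median-ratio scaling. The lines were normalised in separate tables and the difference between them was not tested.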

How the results depend on the processing

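With median-ratio scaling, EMT6 had 3660 genes called higher and 3327 lower, Fabp4 differed by 5.69 and Plin2 by 1.06, and FABP5 lost its call (-0.27, adjusted p = 0.0754). With the trend on exon length removed, the EMT6 counts were 3128 and 3594, and Fabp4 differed by 5.81 and Plin2 by 0.99. Fabp4 differed by 8.19 with a pseudocount of 0.1 and by 5.84 without the 10 most abundant genes. The cause of these changes was not tested. Leaving out 1 library at a time gave 6248 to 6954 genes called in EMT6 (1526 to 1851 higher, 4722 to 5215 lower), Fabp4 at 5.51 to 5.60 and Plin2 at 0.79 to 0.84. In MDA-MB-231 it gave 1551 to 2530 genes called (543 to 1107 higher, 975 to 1597 lower), with 1559 without wild-type replicate 1, 1968 without wild-type replicate 3, 1551 without knockout replicate 2 and 1821 without knockout replicate 3. FABP5 ranged from -0.37 to -0.30, PPARG from 0.75 to 0.92, PLIN2 from -0.14 to -0.10 and LPL from 0.12 to 0.21. Same-numbered libraries did not deviate together (correlations 0.065, -0.017 and 0.073 in EMT6 and 0.0017, 0.11 and -0.13 in MDA-MB-231), so the numbers were not taken as pairs. A replicate block left 1564 genes called in MDA-MB-231 (534 higher, 1030 lower) and FABP5 at -0.33 (adjusted p = 0.0956). Of 27 other named EMT6 genes, 21 stayed on the same side of the threshold under every alternative run. Many of the 27 were named for a low adjusted p or for likeness to Fabp4 in this same contrast. Their staying called was thus favoured by the choice and is a description only. The marker genes and the genes named after their values were seen are not among the 27. The exon length alternative was not run for MDA-MB-231. With TPM alone, the depth behind values under 0.5 TPM is unknown. Levels of Cd36, Pparg and Fabp5 in EMT6, and of Fabp4 in wild-type EMT6, therefore cannot be told from 0.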

Other observations

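Fabp4 belonged to a small class of EMT6 genes that were under 0.5 TPM on average in wild type and at 10 TPM or more in the knockout, which held 6 genes: Tfpi, Usp18, Fabp4, Ifi27l2a, Gm25890 and Gm49250. The opposite class held 9 genes, among them the collagens Col3a1 and Col6a3, the peptidylarginine deiminase Padi4 and the galectin Lgals7. The levels that define these classes were set after earlier results were known, and membership is given as a description.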
